A study of Mus musculus with 8 samples.

Results

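The genes described here are 10 transcription factors and immediate early factors of mouse colon fibroblasts: the Fos family members Fos, Fosb, Fosl1 and Fosl2, the Jun family members Jun, Junb and Jund, the zinc finger factors Egr1 and Egr2, and the nuclear protein gene Ier2. They were chosen by name, with earlier results of these data known, and matched through their Ensembl identifiers to GENCODE M21 symbols. All 10 were found among the 55573 genes counted in each library, and all 10 passed the filter on low counts. The cells carried the strain label C57BL6/J, were cultured on plastic in a DMEM F12 medium containing 10% FBS, and had all been exposed to APTKA conditioned medium (the labels do not expand the name). The 4 non-irradiated libraries came from such cells without further treatment, and the 4 irradiated libraries from cells given 3 doses of 2 Gy. Cells of both groups were harvested 72 h after the first dose, a single time point, and no library without conditioned medium was analysed here. The time from the last dose to harvest is not given here. Whether the 4 libraries of a group derive from different mice or different dishes is not stated in the labels. All p-values therefore measure the spread between these libraries, which may be technical.

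AP-1 is a dimer of basic leucine zipper proteins. Jun proteins pair with one another or with a Fos protein, whereas Fos proteins need a Jun partner to bind DNA. Fos, Fosb, Egr1, Egr2 and Ier2 are classical immediate early genes: growth factors, cytokines and stress switch them on within minutes through MAP kinases acting on SRF and its ternary complex partners and on CREB, without new protein synthesis, and their transcripts are short-lived. Jund, Fosl1 and Fosl2 are made more slowly or more constantly, and in fibroblasts AP-1 and EGR1 are known regulators of proliferation, matrix and inflammatory genes.

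The libraries held between 28731227 and 37157216 counts, and the least abundant factor, Fosb, had 189 to 467 reads per library. Levels are given as CPM, read counts scaled to a common library size with TMM factors, and differences as log2 fold changes of irradiated over non-irradiated cells from edgeR's quasi-likelihood test. A gene was called at a Benjamini-Hochberg adjusted p under 0.05 over the 15259 genes tested. Fibroblast markers were abundant in all libraries (summed over 10 markers, 17080 to 21803 CPM, with Col1a2 and Vim called lower in irradiated cells). The summed epithelial, leukocyte, endothelial and glial or neuronal markers reached at most 2.16, 5.50, 4.43 and 1.13 CPM. Most of the endothelial sum was the receptor gene Kdr, at a mean of 2.96 CPM in non-irradiated and 3.42 CPM in irradiated libraries. The endothelial receptor gene Tie1 had 0 counts. The smooth muscle and pericyte list summed to 363 to 393 CPM in non-irradiated and 307 to 362 CPM in irradiated libraries, most of it Actg2, which was called lower. In such bulk RNA, fewer cells expressing a gene and less RNA per cell cannot be told apart. Irradiated I and II stood apart from the other 6 libraries in mitochondrial rRNA, with 1.51% and 1.53% of their counts against 0.418% to 0.593%, and calls of named genes that were lost or gained without both are given beside those genes.

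Radiation was followed by modestly higher levels of 5 of the 10 factors, Fos, Fosb, Junb, Egr1 and Ier2, and none was called lower. Among all genes tested, 6.74% were called in either direction, 2.59% higher and 4.15% lower. Without non-irradiated IV the count of called factors was 3, as Fosb and Egr1 were then lost. The log2 fold changes of the 10 factors ran from 0.01 for Fosl2 to 0.65 for Fosb with a median of 0.28, against a median of 0.0009 over all genes tested, and were above 0 for all 10 factors, as they were for 7672 of the 15259 genes. The groups did not overlap in CPM for 4 factors, Fos, Fosb, Junb and Ier2, while 14.2% of all genes tested had groups that did not overlap and 6.13% had the irradiated group above. No factor changed by as much as 2-fold. At an unadjusted p under 0.05 edgeR gave 7 factors higher and 0 lower, against 9.50% and 11.7% of all genes tested. DESeq2 with its own adjustment gave 6 and 0, against 4.26% and 6.16% of the 12596 genes to which it gave an adjusted p. Limma-voom gave 5 and 0, against 2.44% and 4.02%.

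**Figure D1:**
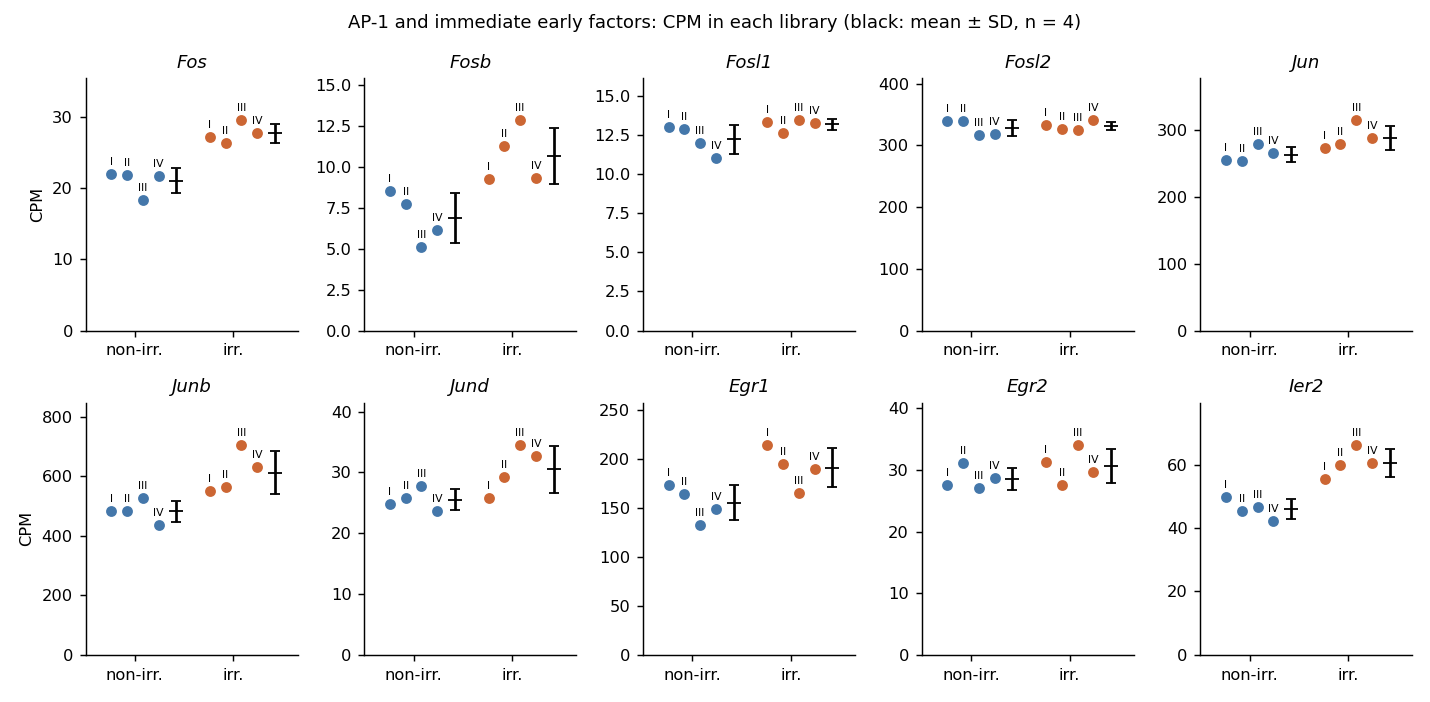
CPM of each factor (vertical axes, each starting at 0) in the 4 non-irradiated (blue) and 4 irradiated (orange) libraries, labelled by replicate numeral, with the mean ± SD in black. For Fos, Fosb, Junb and Ier2 every irradiated library lies above every non-irradiated one, whereas Fosl2 stays near 330 CPM throughout.

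Within the Fos family, the inducible members rose and the Fos-related antigens did not pass the test. Fos, the founding family member (chromosome 12, 85473890 to 85477273 of mm10, protein-coding), stood at 22.0, 21.9, 18.4 and 21.7 CPM in non-irradiated libraries I to IV and at 27.1, 26.2, 29.5 and 27.7 CPM in irradiated libraries I to IV. The lowest irradiated library was 4.24 CPM above the highest non-irradiated one, and non-irradiated III was low by itself. The group means were 21.0 ± 1.76 and 27.6 ± 1.36 CPM (SD, n = 4), a 1.32-fold rise (log2 fold change 0.40, SE 0.06, adjusted p = 0.00181 by edgeR). The call held in all 8 fits that left out 1 library, with adjusted p from 0.00255 to 0.0074.

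Fosb, whose protein resembles Fos (chromosome 7, 19302696 to 19310051), had the largest fold change and the lowest level of the 10. It was at 8.51, 7.76, 5.12 and 6.18 CPM without irradiation and at 9.29, 11.3, 12.9 and 9.33 CPM with it. The groups were separated by only 0.782 CPM, and the spread within each was wide, with a coefficient of variation of 22.2% and 16.1%. The means of 6.89 ± 1.53 and 10.7 ± 1.72 CPM (SD, n = 4) differed 1.56-fold (log2 fold change 0.65, SE 0.15, adjusted p = 0.0174 by edgeR). Without non-irradiated IV the adjusted p was 0.0546 and without irradiated III it was 0.0543, so the call was lost in those 2 of the 8 fits.

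Fosl2 (Fra-2), the most abundant Fos-family transcript, was at 339, 339, 317 and 318 CPM without and 332, 327, 325 and 340 CPM with irradiation. Its groups overlapped, with non-irradiated III and IV below every irradiated library and irradiated IV just above every non-irradiated one. The log2 fold change was 0.01 (SE 0.04, adjusted p = 0.878 by edgeR), with a sign that turned in the fits without non-irradiated III or IV. Fosl1 (Fra-1) was at 13.0, 12.9, 12.0 and 11.03 CPM without and 13.4, 12.7, 13.4 and 13.3 CPM with irradiation, which also overlapped (log2 fold change 0.11, SE 0.07, adjusted p = 0.383). Of the 2033 bases in the merged exons of Fosl1 (chromosome 19, 5447547 to 5455946), 57.2% are also exon of Ccdc85b on the opposite strand. Strand setting is not given in the sources used here, so Fosl1 is uncertain. Ccdc85b itself was at 33.0 ± 2.91 and 41.7 ± 6.41 CPM (SD, n = 4; adjusted p = 0.0545 by edgeR), not called.

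Within the Jun family Junb rose, while Jun and Jund lay higher in irradiated cells without passing the test. Junb, a Jun protein that often restrains Jun activity (chromosome 8, 84974484 to 84978718), was at 483, 484, 526 and 437 CPM without and at 551, 563, 707 and 633 CPM with irradiation. Irradiated III and IV were higher than I and II, and the groups were separated by 25.2 CPM. The log2 fold change was 0.35 (SE 0.07, adjusted p = 0.0118 by edgeR), a 1.27-fold rise called in each of the 8 fits without 1 library (adjusted p up to 0.0402). Junb shares 7.5% of its exon length with Prdx2 on the opposite strand, a gene at 168 ± 9.28 and 165 ± 9.01 CPM (SD, n = 4; adjusted p = 0.821).

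Jun, the family's strongest activator, was at 256, 254, 279 and 265 CPM without and at 274, 280, 315 and 288 CPM with irradiation. Non-irradiated III lay above irradiated I, so the groups overlapped. The log2 fold change of 0.13 (SE 0.05) had an adjusted p = 0.111 by edgeR. Jund, a more constantly expressed member (chromosome 8, 70698949 to 70700616), was at 24.8, 25.7, 27.7 and 23.7 CPM without and at 25.8, 29.2, 34.6 and 32.7 CPM with irradiation. Irradiated I lay inside the non-irradiated range, and the log2 fold change of 0.26 (SE 0.08) had an adjusted p = 0.0796.

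The value of Jund moved more with the processing than that of any other factor. It passed with DESeq2 (adjusted p = 0.0283), without the low-count filter (0.000898), without irradiated I (log2 fold change 0.33, adjusted p = 0.0168) and without both irradiated I and II (0.40, 0.00923). When trends of the counts with GC content and length of the transcripts were taken out library by library (an alternative added after seeing the data), the log2 fold change of Jund was 0.09 (adjusted p = 0.328 by edgeR). Its transcript has a GC content of 67.15%, higher than 99.8% of the tested genes with a value, and the count of Jund is uncertain because 52.6% of its exon length is shared with the antisense gene Gm11175, which had 0 counts in every library.

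**Figure D2:**
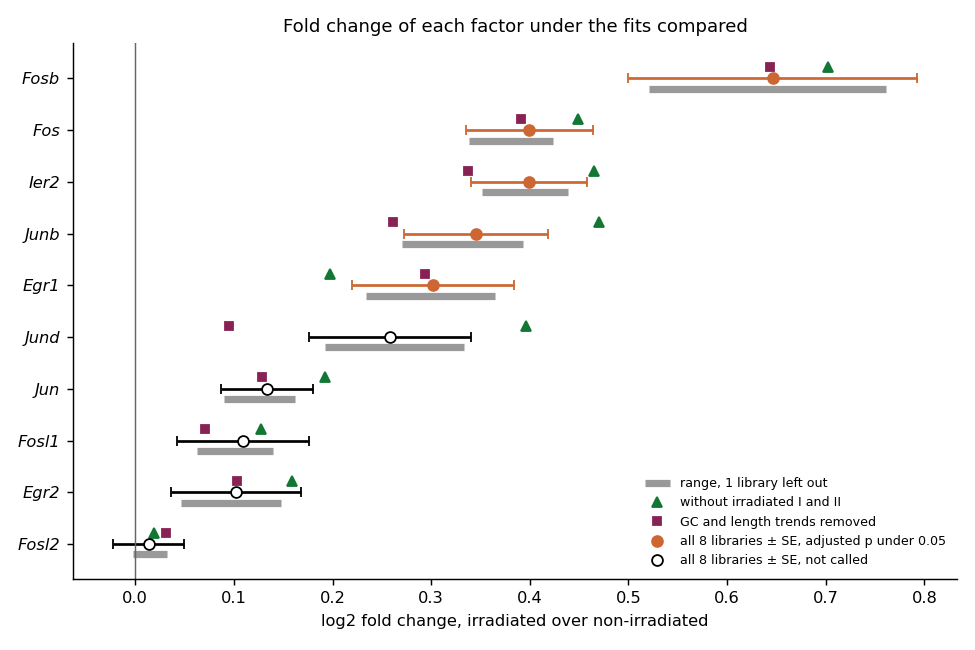
Log2 fold change of irradiated over non-irradiated cells for each factor (circles, ± SE, filled where called), with the range over the 8 fits that leave out 1 library (grey bars), the value without irradiated I and II (triangles) and the value with GC and length trends removed (squares). Jund shows the widest span, from 0.09 to 0.40, and Egr1 is the called factor whose value drops without irradiated I and II, to 0.20.

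Of the EGR factors, Egr1 was called and Egr2 was not. Egr1, a zinc finger factor that growth signals and radiation induce within minutes, was at 174, 164, 133 and 149 CPM without and at 214, 194, 166 and 190 CPM with irradiation. Irradiated III fell inside the non-irradiated range, so the groups overlapped. The means were 155 ± 17.9 and 191 ± 19.99 CPM (SD, n = 4; log2 fold change 0.30, SE 0.08, adjusted p = 0.0439 by edgeR). The call was lost in 5 of the 8 fits that left out 1 library, with adjusted p = 0.0892 without non-irradiated III, 0.105 without non-irradiated IV, and 0.126, 0.0963 and 0.0933 without irradiated I, II and IV. Without both irradiated I and II, the libraries with more mitochondrial rRNA, the log2 fold change of Egr1 was 0.20 (adjusted p = 0.309), and the part of that difference between libraries in the result was not tested.

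Egr2 was at 27.5, 31.1, 27.2 and 28.6 CPM without and at 31.2, 27.6, 34.1 and 29.7 CPM with irradiation, with overlapping groups and a log2 fold change of 0.10 (SE 0.07, adjusted p = 0.406 by edgeR). The other family members were low: Egr3 at 1.53 ± 0.354 and 1.92 ± 0.412 CPM (SD, n = 4; adjusted p = 0.349), and Egr4 at 1.55 ± 0.498 and 3.10 ± 0.587 CPM. Egr4 rose with a log2 fold change of 0.99 (SE 0.20, adjusted p = 0.00885) and was chosen after its value was seen. Its call was lost without both non-irradiated I and III (0.0674). Nab2, a corepressor that binds EGR proteins, was at 60.7 ± 3.20 and 64.4 ± 1.59 CPM (adjusted p = 0.285).

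Ier2, a small nuclear protein induced together with Fos and Egr1 by serum (chromosome 8, 84661331 to 84662852, 1 exon), had the smallest adjusted p of the 10. Its libraries were at 49.6, 45.3, 46.6 and 42.1 CPM without and at 55.5, 59.8, 66.2 and 60.5 CPM with irradiation, a gap of 5.87 CPM between the groups. The log2 fold change was 0.40 (SE 0.06, adjusted p = 0.000924 by edgeR), and the adjusted p stayed at or below 0.00396 in each of the 8 fits without 1 library.

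The libraries of a group did not order the factors alike. Irradiated III was the highest irradiated library for 8 of the 10 factors and the lowest for the other 2, Egr1 and Fosl2. Irradiated I showed the opposite: it was highest for Egr1 and lowest for Fosb, Jun, Junb, Jund and Ier2. Among non-irradiated libraries, III was highest for the 3 Jun family genes and lowest for Fos, Fosb, Fosl2, Egr1 and Egr2. On the log2 scale, irradiated III lay 0.55 above the non-irradiated mean for Junb and 0.10 above it for Egr1, and irradiated I lay 0.19 and 0.47 above it.

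**Figure D3:**
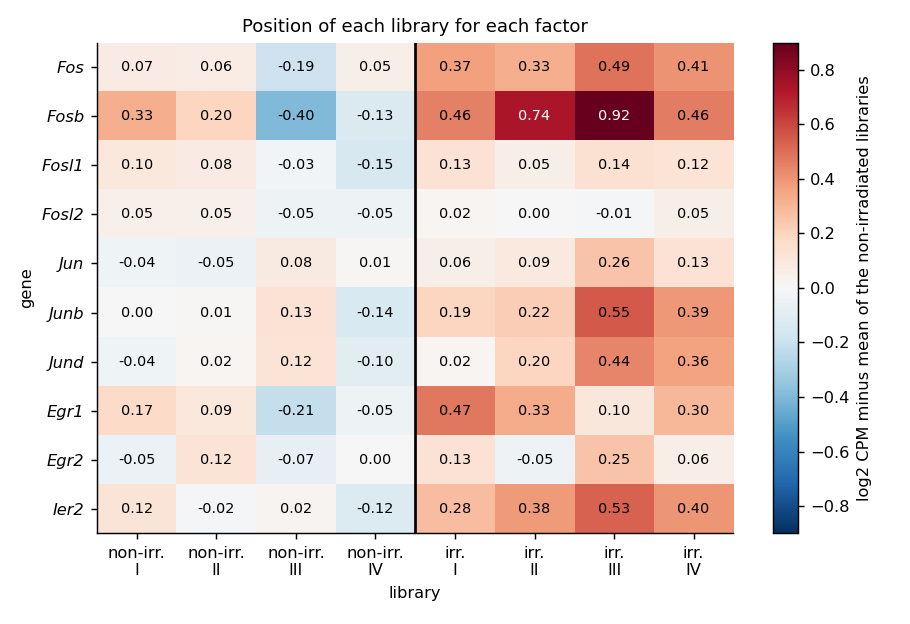
Log2 CPM of each factor (rows) in each library (columns) minus the mean of the 4 non-irradiated libraries, printed in the cells and coloured from blue (lower) to red (higher). Irradiated III is the highest for most rows, with 0.92 for Fosb and 0.55 for Junb, but not for Egr1, where irradiated I is highest with 0.47.

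The factors all lay above the median GC content of the tested genes, some only slightly and some far above it. The choice by name did not use GC content. Egr2, the lowest of the 10 at 51.4% GC, was richer in GC than 61.2% of the tested genes, and Ier2 (60.9%) and Junb (62.6%) were richer than 97.3% and 98.7% of them. The 1527 tested genes richest in GC (at least 57.7%) had a median log2 position against the non-irradiated mean of 0.07 in irradiated III and 0.04 in irradiated IV, against 0.02 and -0.01 in irradiated I and II. Across non-irradiated libraries this median ran from -0.07 to 0.05. With the GC and length trends removed, the called factors were again Fos (log2 fold change 0.39), Fosb (0.64), Ier2 (0.34), Egr1 (0.29) and Junb (0.26), with adjusted p from 0.000515 to 0.0375 by edgeR.

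Levels can be compared between genes only per length, so CPM was divided by the kilobases of merged exons to give RPKM. In non-irradiated cells Junb was the most abundant factor at 210 ± 15.8 RPKM, 2.54 times the level of Jun at 82.6 ± 3.56 RPKM (SD, n = 4). Egr1 (34.6 ± 3.99 RPKM) and Fosl2 (33.9 ± 1.29 RPKM) came next and did not differ beyond their spread. Ier2 followed at 30.2 ± 2.06 RPKM, just below the range of Fosl2. Jund was at 15.3 ± 1.03 RPKM, and Fos (8.92 ± 0.748 RPKM) and Egr2 (8.42 ± 0.523 RPKM) again overlapped. Fosl1 was at 6.02 ± 0.456 RPKM and Fosb at 1.10 ± 0.245 RPKM, so the factor with the largest fold change was also the least abundant. Dividing the same full counts by only the exon bases not shared with another gene gave Jund 32.2 ± 2.16 RPKM, overlapping Fosl2 and Ier2. For Fosl1 this gave 14.1 ± 1.07 RPKM, above Fos. These 2 values hold only if no read from the shared bases was counted for the gene, which was not tested. In irradiated cells, with all exon bases used, Ier2 (39.8 ± 2.90 RPKM) stood above Fosl2 (34.2 ± 0.703 RPKM), and the other factors kept their places.

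**Figure D4:**
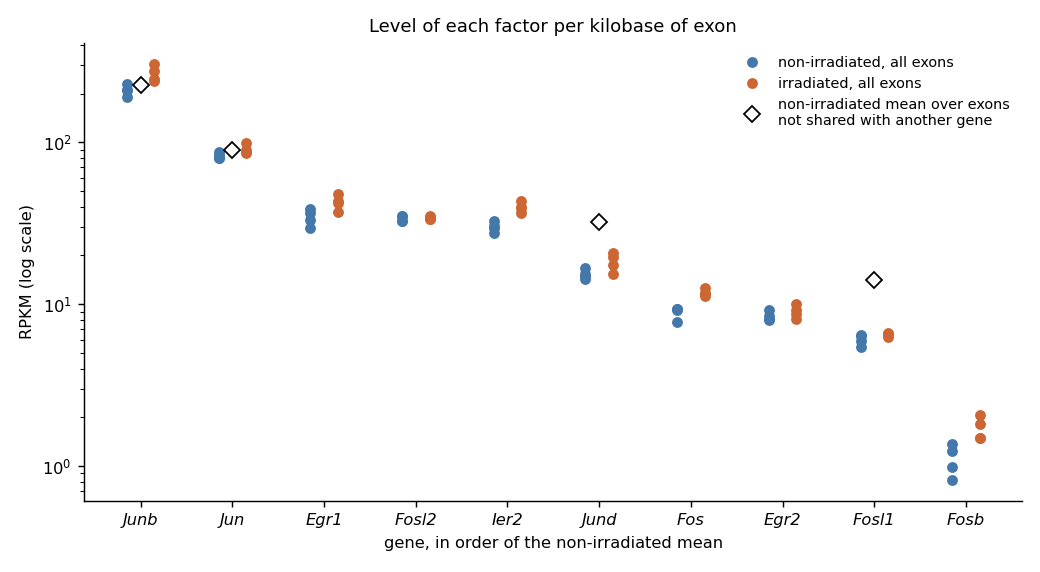
RPKM of each factor on a log scale in the non-irradiated (blue) and irradiated (orange) libraries, in order of the non-irradiated mean. Open diamonds give the non-irradiated mean with the same full count divided only by the exon bases not shared with another gene. Levels run from 210 RPKM for Junb to 1.10 RPKM for Fosb, and the diamonds of Jund and Fosl1 lie well above their points.

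Within the Fos family, the share of Fosl2 per kilobase was 67.1%, 67.5%, 69.3% and 67.7% in non-irradiated libraries and 63.7%, 63.8%, 61.3% and 63.9% in irradiated libraries. The share of Fos was 17.9%, 17.9%, 16.5% and 19.1% against 21.4%, 21.1%, 22.9% and 21.5%. Both shares were separated between the groups, as was that of Fosb, from 2.196% ± 0.388 to 3.16% ± 0.510 (SD, n = 4). The share of Fosl1 was 12.0% ± 0.578 and 12.0% ± 0.195 and carries the exon sharing with Ccdc85b. Through the family total this sharing also bears on the size of the other shares. Within the Jun family Junb held 68.1% ± 1.35 in non-irradiated and 70.9% ± 0.974 in irradiated libraries, and Jun 26.9% ± 1.37 and 24.2% ± 1.06, without overlap in either case. Their family total includes Jund. Its non-irradiated level was 15.3 RPKM with the count divided by all exon bases and 32.2 RPKM with unshared bases only. The log2 ratio of Junb to Jun counts was 0.92, 0.93, 0.92 and 0.72 without and 1.01, 1.01, 1.17 and 1.14 with irradiation. These ratios do not depend on library scaling and are given as a description, with no test. They can depend on GC content, which is 62.58% for Junb and 55.53% for Jun. With the GC and length trends removed, the log2 fold change of Junb was 0.26 instead of 0.35. That of Jun was 0.13 in both fits. The shares and ratios were not recomputed with the trends removed.

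Stretches of upstream DNA are shown for the called factors that have an entry in the RefSeq promoter table (GRCm38.p6) and for Jun, the uncalled family member next in abundance to Junb, to set the sequence next to the start of factors that rose beside that of one not called. The table held 7 of the 10 factors. Each line gives the 250 bases before the RefSeq start site, 5′ to 3′ on the gene's strand, and capitals mark matches to TGACG (the core of the CREB and ATF site), TGACNTCA (the full site, which includes the Jun promoter's own AP-1-like element), GCGGGGGCG (an EGR site) and TATAAA.
Fos, chr12:85473640-85473889, plus strand: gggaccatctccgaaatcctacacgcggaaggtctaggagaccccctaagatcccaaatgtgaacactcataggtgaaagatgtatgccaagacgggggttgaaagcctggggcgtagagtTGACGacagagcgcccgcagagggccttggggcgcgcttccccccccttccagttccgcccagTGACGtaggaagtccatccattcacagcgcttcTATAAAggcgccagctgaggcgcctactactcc
Fosb, chr7:19310046-19310295, minus strand: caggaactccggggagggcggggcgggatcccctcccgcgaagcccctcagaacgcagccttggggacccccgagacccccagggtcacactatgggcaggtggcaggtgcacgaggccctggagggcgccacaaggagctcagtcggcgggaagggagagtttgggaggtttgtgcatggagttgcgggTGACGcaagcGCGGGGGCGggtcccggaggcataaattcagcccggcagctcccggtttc
Junb, chr8:84978749-84978998, minus strand: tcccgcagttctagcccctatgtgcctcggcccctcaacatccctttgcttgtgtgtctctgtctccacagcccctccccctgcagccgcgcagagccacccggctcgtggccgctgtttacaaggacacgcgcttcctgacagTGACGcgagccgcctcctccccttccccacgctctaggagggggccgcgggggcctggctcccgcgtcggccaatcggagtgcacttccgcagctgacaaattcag
Jun, chr4:95052223-95052472, minus strand: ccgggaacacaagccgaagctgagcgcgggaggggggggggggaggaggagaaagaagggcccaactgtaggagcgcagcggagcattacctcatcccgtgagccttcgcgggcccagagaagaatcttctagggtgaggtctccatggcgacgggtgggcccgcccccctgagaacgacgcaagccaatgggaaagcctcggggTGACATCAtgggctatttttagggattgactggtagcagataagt

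Both strands were searched. TGACG was found in the windows of Fos (its matches begin 129 and 66 bases before the start), Fosb (60 bases) and Junb (106 bases), and also in those of Egr2, which was not called; 17.8% of all 32851 windows of this length held it. TGACNTCA was found in Jun, 45 bases before its start, and in 7.49% of all windows. The EGR site was present in Fosb and Fosl2 and in 2.57% of all windows, and TATAAA in Fos and in 12.4%. The CArG box, to which SRF binds, was found only in Egr2 among the 7 factors and in 1.47% of all windows. CCAAT, not capitalised, was present in Jun, Junb and Egr2 and in 33.8% of all windows, and TGAGTCA, the classical AP-1 site, in none of the 7 factors and in 4.46% of all windows. TGACNTCA overlaps TGACG where its free base is G. A match is a description of letters, and the windows do not reach enhancers or more distant promoter elements.

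Genes with the most similar course over the 8 libraries were taken by the root mean square difference of centred log2 CPM, among 10338 genes with a mean of at least 5 CPM. Closest to Junb was Phlda3, a p53 target (difference 0.03, from 446 to 576 CPM on average), followed by Abhd17a and Zfp316. Abhd17a was not called (adjusted p = 0.0877 by edgeR). The GC content of these neighbours was 62.58%, 64.62% and 58.55%, all within the 1527 tested genes richest in GC, as is Junb (62.58%). The part of GC content in this likeness was not tested. Closest to Fos were Pik3r3 (0.06), Sulf2 and Fam129c, to Ier2 Gas6 (0.07), Dcxr and Bmp2, and to Egr1 Notch3 (0.08), Zfp36 and 4632404H12Rik. By this difference Fosb had no neighbour as close: Actg1 differed by 0.10, and Vnn1 and Igsf9b by 0.21 and 0.24. The difference is not scaled to how much a gene varies, and Fosb varied more over the libraries. Its root mean square around its own mean was 0.40, against 0.21 to 0.22 for the other called factors. Actg1, at 4.70 CPM in non-irradiated cells, has near-identical copies, so its count is uncertain. The neighbours of the called factors other than Junb ran from 43.74% GC (4632404H12Rik, not called, adjusted p = 0.134 by edgeR) to 60.07% (Dcxr). Between the factors themselves, Junb and Jund (0.07) and Fosl1 and Fosl2 (0.07) were closest, and Junb and Egr1 differed by 0.24. Against the non-irradiated mean, Fosl1 ran only from -0.15 to 0.14 and Fosl2 from -0.05 to 0.05 on the log2 scale. Junb ran from -0.14 to 0.55.

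Further immediate early genes moved mainly upward, though with exceptions. Of 41 tested, 10 were called higher and 3 lower (31.7%, against 6.74% of all genes tested), with a median log2 fold change of 0.11. The list was chosen with earlier results of these data known, so its share is a description. Btg2, an antiproliferative gene that p53 also induces, rose from 145 ± 5.33 to 196 ± 10.05 CPM (SD, n = 4; log2 fold change 0.44, adjusted p = 4.86e-05 by edgeR). Plk2, a polo-like kinase also induced by p53, rose from 480 ± 7.70 to 572 ± 19.0 CPM (0.25, adjusted p = 0.000539). Ptgs2, the inducible cyclooxygenase, rose 0.30 on the log2 scale, but its adjusted p was 0.105 when irradiated I and II were both left out and 0.0529 when non-irradiated I and III were. The 3 lower genes were Sgk1, a serum-induced kinase (125 ± 3.22 to 109 ± 4.05 CPM, adjusted p = 0.00655), Myc, the growth regulator (69.4 ± 3.92 to 59.1 ± 2.36 CPM, adjusted p = 0.0101), and Errfi1, an inhibitor of the EGF receptor chosen after its value was seen (-0.14, adjusted p = 0.047). Errfi1 was called in 1 of the 8 fits without 1 library, that without irradiated III. With irradiated I and II both left out, the adjusted p of Errfi1 was 0.293 and that of Myc 0.0742. Nr4a1, a nuclear receptor of the early response, was at 24.4 ± 1.83 and 26.4 ± 1.78 CPM (adjusted p = 0.325), and Dusp1, a MAP kinase phosphatase, at 14.1 ± 0.648 and 15.2 ± 0.851 CPM (adjusted p = 0.314). The count of higher genes was 6 without non-irradiated IV or irradiated III, 5 without irradiated IV, and also 5 with non-irradiated I and III both left out. Atf3 and Zfp36, whose values follow with other lists, belong to this list too.

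The lists of AP-1 partners, regulators and targets each had 1 or 2 called genes, and the share called is read against 6.74% of all genes tested. Of 13 other basic leucine zipper partners tested, 1 was higher and 1 lower (15.4% called), with a median of -0.01. Atf3, a stress-induced partner of Jun, rose from 11.7 ± 1.36 to 14.8 ± 1.31 CPM (SD, n = 4; log2 fold change 0.35, adjusted p = 0.0336 by edgeR), lost when non-irradiated I, non-irradiated III, irradiated III or irradiated IV was left out (adjusted p up to 0.102). Creb5 fell from 21.2 ± 3.83 to 15.9 ± 1.68 CPM (-0.42, adjusted p = 0.0446), which 3 of the 8 fits without 1 library also called. Those that lost it were those without non-irradiated I or IV or irradiated I, III or IV. With irradiated I and II both left out its adjusted p was 0.0608. Atf4 (497 ± 10.8 and 491 ± 17.9 CPM, adjusted p = 0.822) and the AP-1 repressor Jdp2 (85.2 ± 9.73 and 76.4 ± 4.97 CPM, adjusted p = 0.234) did not pass, and Batf, at 0.113 and 0.188 CPM, was not tested.

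Of 12 SRF, ternary complex and MRTF factors 1 was called (8.33%), with a median of -0.08. This was Elk3, a ternary complex factor that can repress SRF targets, which fell from 104 ± 3.14 to 94.9 ± 1.652 CPM (SD, n = 4; log2 fold change -0.14, adjusted p = 0.0474 by edgeR) and was called in 1 of the 8 fits without 1 library, that without non-irradiated IV. With irradiated I and II both left out its adjusted p was 0.16. Srf itself was at 40.3 ± 2.00 and 40.5 ± 4.43 CPM (adjusted p = 0.963) and Mef2a, the most abundant uncalled member, at 189 ± 9.91 and 191 ± 11.2 CPM (adjusted p = 0.892). Of 28 genes of the MAP kinase cascade 2 were called, both lower (7.14%), with a median of 0.02. Rps6ka2, a ribosomal S6 kinase, fell from 24.2 ± 2.55 to 18.8 ± 0.930 CPM (-0.37, adjusted p = 0.00798; 0.0657 when non-irradiated I and III were both left out). Nras fell from 121 ± 3.77 to 108 ± 3.30 CPM (-0.16, adjusted p = 0.0252), which was lost when non-irradiated I or irradiated I, III or IV was left out (adjusted p up to 0.0867), or when irradiated I and II both were (0.0545). Mapk8, which encodes the Jun kinase JNK1, was at 52.0 ± 3.66 and 53.3 ± 1.53 CPM (adjusted p = 0.753), and Mapkapk2 at 314 ± 13.3 and 320 ± 10.1 CPM (adjusted p = 0.788). For these lists edgeR gave no gene higher, also at an unadjusted p under 0.05 (0 of 12 and 0 of 28), and neither did DESeq2 or limma-voom (0 each). The shares higher over all genes were 9.50% at the unadjusted p, 4.26% by DESeq2 and 2.44% by limma-voom.

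Of 12 genes for turnover and repression 2 were called higher (16.7%): Fbxw7, a ubiquitin ligase component whose targets include Jun (48.0 ± 2.47 to 54.6 ± 1.68 CPM, log2 fold change 0.18, adjusted p = 0.0244 by edgeR; SD, n = 4), and Zfp36, which speeds the decay of early response transcripts (33.8 ± 2.30 to 38.8 ± 1.86 CPM, 0.20, adjusted p = 0.0439). Fbxw7 was called in 5 and Zfp36 in 3 of the 8 fits without 1 library. Fbxw7 lost its call without irradiated I, III or IV, and Zfp36 without non-irradiated III or IV or irradiated I, II or IV. With irradiated I and II both left out, the log2 fold change was 0.20 for Fbxw7 (adjusted p = 0.107) and 0.15 for Zfp36 (adjusted p = 0.314 by edgeR). The median of the list was -0.02. Of 22 AP-1 target genes none was called higher and 2 lower by edgeR (9.09%), with a median of -0.07. At an unadjusted p under 0.05 edgeR gave 2 higher and 8 lower, against 9.50% and 11.7% of all genes tested. DESeq2 gave 2 higher and 4 lower, against 4.26% and 6.16% of the genes to which it gave an adjusted p. Limma-voom gave 1 and 2, against 2.44% and 4.02%. Hbegf, an EGF receptor ligand, fell from 31.7 ± 1.76 to 25.9 ± 1.02 CPM (-0.30, adjusted p = 0.00357), though not without both irradiated I and II (0.0608). Ccl2, a monocyte chemokine, fell from 588 ± 42.8 to 511 ± 34.4 CPM (-0.20, adjusted p = 0.0498), which 3 of the 8 fits also called; it was lost when non-irradiated I or III, or irradiated I, III or IV, was left out, and when irradiated I and II both were (0.0996). The list's count of lower genes was 4 without non-irradiated II and 1 when non-irradiated I, irradiated I or irradiated IV was left out, and its count of higher genes 1 when non-irradiated III or irradiated IV was. Spp1, osteopontin, was at 5138 ± 430 and 5008 ± 414 CPM (adjusted p = 0.80).

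**Figure D5:**
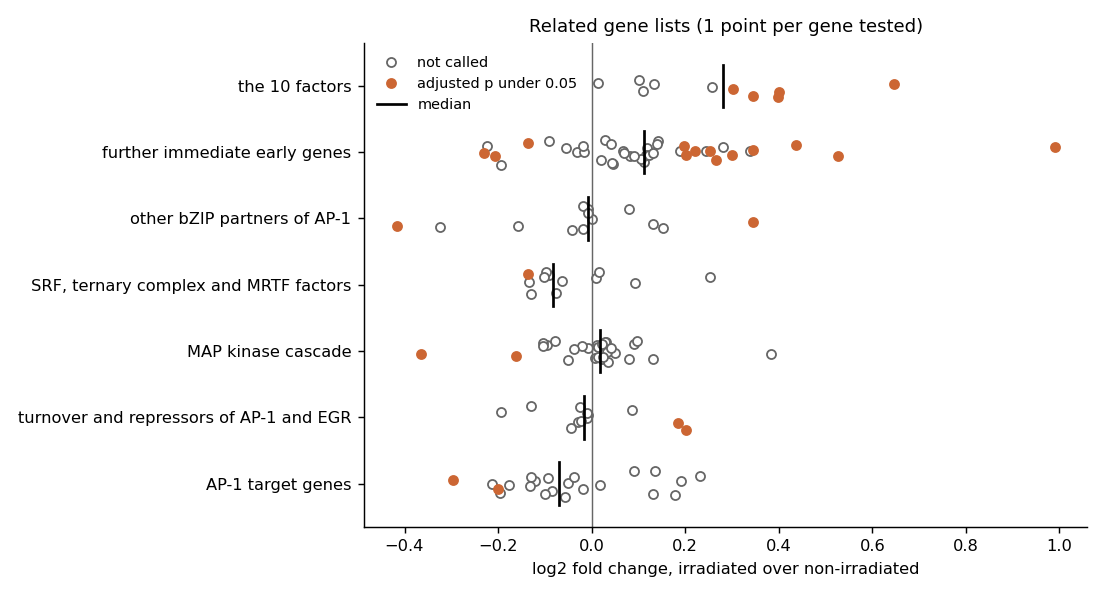
Log2 fold change of every tested gene in the 10 factors and 6 related lists (horizontal axis, irradiated over non-irradiated), with called genes filled and the median of each list as a black bar. The medians are 0.28 for the 10 factors and 0.11 for further immediate early genes, and between -0.08 and 0.02 for the other lists.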

How the data were processed

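The authors deposited, for each library, whole-number counts of reads for every Ensembl gene, not normalized. The submitters' processing notes name STAR (2.5.2a), featureCounts (1.5.0-p1), bcl2fastq (2.20.0.422) and the genome build mm10. Strand setting, annotation release and the handling of multi-mapping reads: not given in the sources used here. Per the labels the RNA was polyA RNA. GENCODE M21 (GRCm38, the same coordinates as mm10) gave symbols for 55480 of the 55573 identifiers, and the others held 0.0004% of the counts.

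From these counts, edgeR 4.0.16 (R 4.3.3) with TMM factors and filterByExpr (minimum count 10, minimum total 15) tested 15259 genes and left out 40314, with group as the sole term over all 8 libraries. The SE is the absolute log2 fold change over the square root of F. The fit was tested on simulated data with known changes, but its recovery of changes as small as those of the factors is not given here. Alternatives were upper-quartile or RLE factors, limma-voom (limma 3.58.1), DESeq2 1.42.0, no filter, at least 1 CPM in 4 libraries, a replicate block, leaving out each library, leaving out both irradiated I and II or both non-irradiated I and III, and, chosen after seeing the data, an offset for GC and length trends (loess, span 0.5).

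The factors and lists were chosen with earlier results of these data known. Named were all 10 factors, from each related list the 3 called genes with the smallest adjusted p and the most abundant other tested gene, a fixed set (Atf3, Srf, Egr3, Jdp2, Batf, Elk3, Mapk8, Dusp1, Nr4a1, Myc and Nab2), and the 3 genes most like each called factor. A few of the genes so chosen are not reported here.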

Additional observations from a re-analysis of the deposited data

Results flagged for a closer look

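In 72 groups of 4 libraries checked for a library standing apart from the rest, 3 had one; chance marks about 1 in 20 such groups. Fos was at 18.4 CPM in non-irradiated III against 21.7 to 22.0 CPM in the other non-irradiated libraries; without that library its log2 fold change was 0.34 (adjusted p = 0.00276 by edgeR). Nras was at 126.6 CPM in non-irradiated I against 118.5 to 119.5 CPM in the others; without that library its adjusted p was 0.0645. Jdp2 was at 83.8 CPM in irradiated III against 73.5 to 74.5 CPM in the other irradiated libraries.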

How the results depend on the processing

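Fos, Junb and Ier2 were called higher under all 18 alternatives, and no factor was called lower under any. Leaving out 1 library gave 3 to 5 called factors and log2 fold changes of 0.5205 to 0.7609 for Fosb, -0.002515 to 0.03191 for Fosl2, 0.192 to 0.333 for Jund and 0.2342 to 0.3646 for Egr1. Leaving out both irradiated I and II gave 0.3964 for Jund (called) and 0.197 for Egr1 (not called), and leaving out both non-irradiated I and III gave 0.286 for Egr1 (not called). Jun passed without the filter (0.1362), and Jund without it (0.2607) and with DESeq2 (0.2608). Whether the replicate numerals pair the samples was not settled. Deviations of same-numbered libraries correlated at 0.025, -0.033, 0.275 and 0.147, and 2 of the 4 matched best with their own number. With the replicate block, 1352 genes were called against 1029, and Jun (0.1326) and Jund (0.2559) passed. The adjusted p of Egr1 by edgeR was 0.000454 with the block and 0.0439 without it.

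Leaving out 1 library, further immediate early genes had 5 to 10 higher. Zipper partners had 0 to 1 higher and 0 to 1 lower, SRF factors 0 to 1 lower and the MAP kinase cascade 1 to 2 lower. Turnover genes had 0 to 2 higher and 0 to 1 lower, and AP-1 targets 0 to 1 higher and 1 to 4 lower. Without both non-irradiated I and III, counts were 5 higher for further immediate early genes, 0 higher and 0 lower for zipper partners, 0 lower for SRF factors, 0 lower for the MAP kinase cascade, 0 higher for turnover genes and 2 higher for AP-1 targets. Without both irradiated I and II they were 1 lower for further immediate early genes, 0 lower for zipper partners, 0 lower for SRF factors, 1 lower for the MAP kinase cascade, 0 higher for turnover genes and 0 lower for AP-1 targets. Zipper partners had 2 lower with DESeq2, 0 with limma-voom, 3 without the filter and 2 with the block. SRF factors had 0 lower with upper-quartile factors, without the filter and with GC and length trends removed, where the MAP kinase cascade had 1. Turnover genes had 1 higher with upper-quartile factors and 1 lower with the block. AP-1 targets had 1 higher with upper-quartile factors, limma-voom, the 1 CPM filter or the block, 2 with DESeq2 and 4 without the filter, and 1 lower with RLE factors, 4 with DESeq2 and 5 without the filter.

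Signs turned for genes near 0: Atf4 (0.0155 without both irradiated I and II), Spp1 (0.0004348) and Mapk8 (-0.03142) without both non-irradiated I and III, and Srf (-0.09695 with GC and length trends removed). Leaving out 1 library gave -0.01844 to 0.04073 for Mef2a, -9.074e-06 to 0.04773 for Mapkapk2, -0.0868 to 0.01099 for Spp1, -0.04401 to 0.06446 for Srf and -0.01228 to 0.06158 for Mapk8. Fits without libraries rest on fewer samples, and for the other changes the cause was not tested.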
